A study of Mus musculus with 10 samples.

Results

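A set of 10 genes of the carnitine shuttle and of mitochondrial fatty acid beta-oxidation were examined, chosen by symbol from the 20813 genes of the deposited table. They are Cpt1a, Slc25a20, Cpt2, Acadvl, Acadl, Acadm, Hadha, Hadhb, Acaa2 and Etfdh, and all 10 were present and passed the filter on low values. The set was built around Cpt1a because Cpt1a had already been seen to be lower in one group, so the members' differences between the groups are given as descriptions without a test.

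RNA was sequenced from 10 leukemic spleens of C57BL/6 mice. All recipients were sub-lethally irradiated and then received, by vein, a T-cell acute lymphoblastic leukemia (T-ALL, a cancer of immature T cells) that carried a conditional Sirt1 allele. The 5 samples labelled Sirt1-deleted (replicates 7, 8, 10, 11 and 12) carry titles that begin with TMX, for tamoxifen (3 mg per mouse, dissolved in corn oil and given into the peritoneum), and the 5 controls (replicates 2 to 6) carry titles that begin with VEH, for the corn oil vehicle. Deletion and tamoxifen therefore coincide in every sample and cannot be told apart. The Cre driver, the recipients' age and the number of primary leukemias that were transplanted are not given in the sources used here. Nor do the labels say that the samples of a group came from separate mice, so p-values measure only the spread between these samples, which may be technical.

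Long-chain fatty acids enter mitochondria as carnitine esters. Carnitine palmitoyltransferase 1 on the outer membrane (Cpt1a is its liver-type gene, also used by lymphocytes) makes the ester and is the rate-controlling step, inhibited by malonyl-CoA. The carrier encoded by Slc25a20 brings the ester across the inner membrane, and Cpt2 turns it back into acyl-CoA. Chain-length-specific acyl-CoA dehydrogenases, the trifunctional protein and a thiolase then shorten the chain, and electrons from the dehydrogenases reach ubiquinone through the electron transfer flavoprotein and Etfdh. Many of these genes are known targets of the fatty-acid-sensing nuclear receptors of the PPAR family.

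The deposited values are counts per gene normalized by DESeq, called normalized counts below, and they summed to between 33660245 and 34471964 per sample. Sirt1 itself measured 1810 ± 62.5 normalized counts against 1873 ± 146 with the Sirt1-deleted label (SD, n = 5 per group; limma adjusted p = 0.568), so its gene-level value did not separate the groups and the word "labelled" is kept. Which exons the allele removes is not given in the sources used here. T lineage markers were high in all samples: the 16 listed genes summed to 234862 to 248350 in controls and 236617 to 257890 in the labelled Sirt1-deleted samples, although by limma 5 of the 16 fell and 2 rose. Neutrophil markers moved with the groups. All 14 were present, 13 were higher by limma, and their sum was 9166 to 12659 in controls against 28975 to 99982. Macrophage and monocyte markers summed to 3695 to 4219 in controls against 7598 to 14707, with 14 of 16 higher. Stromal and endothelial markers summed to 5660 to 6589 in controls against 4906 to 5401, with no overlap, and 2 of the 6 tested genes fell. These were Pdgfrb (mean 2170 in controls against 1459) and Col1a2 (526.1 against 362.4). Pecam1, the largest part of the sum, was not called (3252 against 3192). At lower values, Cdh5 and Kdr had lower means in the labelled Sirt1-deleted samples, and Col1a1, Col3a1 and Dcn higher ones. The separation of the sums therefore describes no shared fall of these markers. Erythroid markers varied widely between samples, with sums of 33233 to 123658 in controls and 30797 to 149299 in the labelled Sirt1-deleted samples. B cell markers summed to 17918 to 21040 and 19132 to 26658, and 0 genes of these lists were called. The part of all these markers in the differences below was not tested. Of all tested genes, 36.1% were called by limma in either direction. Adipocyte markers were near 0, with sums of at most 36.1. The liver gene Alb measured 2771 in labelled Sirt1-deleted replicate 10 and at most 14.1 in each other sample, so the members' values are also given without that sample. In bulk spleen, fewer cells of a type and less RNA per cell cannot be told apart.

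The DNA in front of 3 members is shown, together with the short stretch between Hadha and Hadhb. These 3 are Cpt1a and the members whose profiles were most like that of Cpt1a across the samples (described further on). The sequences are from RefSeq on GRCm38.p6, which is the mm10 build named in the submitters' processing notes. Each run lies within the 250 bases before the RefSeq start, outside every exon of GENCODE M21, in the direction of the gene, and capitals mark the searched motifs. The RefSeq start of Cpt1a lies inside the GENCODE gene, whose earliest start is farther upstream. The regions are chr19:3323051-3323284 (plus strand) for Cpt1a, chr9:108661886-108662087 (plus strand) for Slc25a20, chr11:70015429-70015678 (minus strand) for Acadvl and chr5:30155163-30155247 (shown on the plus strand) for the stretch between Hadha and Hadhb.
Cpt1a: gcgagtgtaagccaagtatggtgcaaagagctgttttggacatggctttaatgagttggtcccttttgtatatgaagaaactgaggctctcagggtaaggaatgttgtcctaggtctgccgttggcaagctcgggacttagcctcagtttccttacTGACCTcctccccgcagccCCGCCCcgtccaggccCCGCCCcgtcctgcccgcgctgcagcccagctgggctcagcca
Slc25a20: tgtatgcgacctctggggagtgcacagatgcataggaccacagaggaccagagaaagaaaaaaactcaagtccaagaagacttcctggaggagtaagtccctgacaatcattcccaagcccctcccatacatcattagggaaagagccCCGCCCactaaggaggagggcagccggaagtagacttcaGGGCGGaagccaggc
Acadvl: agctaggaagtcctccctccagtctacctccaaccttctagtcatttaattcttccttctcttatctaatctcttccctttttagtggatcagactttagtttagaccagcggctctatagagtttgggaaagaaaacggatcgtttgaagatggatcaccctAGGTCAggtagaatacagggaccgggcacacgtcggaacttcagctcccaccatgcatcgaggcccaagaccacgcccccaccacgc
Hadha to Hadhb: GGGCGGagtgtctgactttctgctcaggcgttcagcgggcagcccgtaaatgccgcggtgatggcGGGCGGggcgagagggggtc

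In these windows 4 motifs were searched on both strands: the nuclear receptor hexamer AGGTCA, the PPAR response element AGGTCANAGGTCA (which contains the hexamer), the E-box CACGTG and the Sp1 site GGGCGG. Of the members, 9 had an entry (not Acaa2). The hexamer was found in the 250 bases before Cpt1a (94 to 89 bases upstream), Acadvl (87 to 82 bases upstream) and Acadm (249 to 244 bases upstream), and in 14.0% of all 32851 windows. The full response element was found in 0 of the 9 and in 0.0335% of all windows, and the E-box in 0 of the 9 and in 6.02% of all. The Sp1 site was found before 6 of the 9 (Cpt1a, Slc25a20, Cpt2, Acadl, Hadha and Hadhb) and in 32.7% of all windows. The only match before Hadha (188 to 183 bases upstream) is the same stretch of DNA as the farther match before Hadhb (90 to 85 bases upstream). It is thus counted for both genes. A match is a description of letters and shows no binding.

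Of the 10 members, 8 were lower in the labelled Sirt1-deleted samples with no overlap between the groups, and 2, Cpt2 and Acadm, measured nearly the same in both. As a description only, these 8 lay beyond the all-gene limma threshold (Benjamini-Hochberg adjusted p under 0.05) as lower and 0 as higher, which is no test of a set chosen on this contrast. Over all 15276 tested genes, 36.1% were called (19.4% lower, 16.8% higher), and the groups did not overlap for 24.0% (12.9% lower, 11.1% higher). Among all calls 46.4% were higher, and 58.2% after upper-quartile rescaling. Because the set was proposed from this contrast, nothing is read from the comparison with these shares. The members' median log2 difference was -0.40, against -0.00014 over all tested genes. All differences here are of log2(normalized count + 1), labelled Sirt1-deleted minus control.

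**Figure D1:**
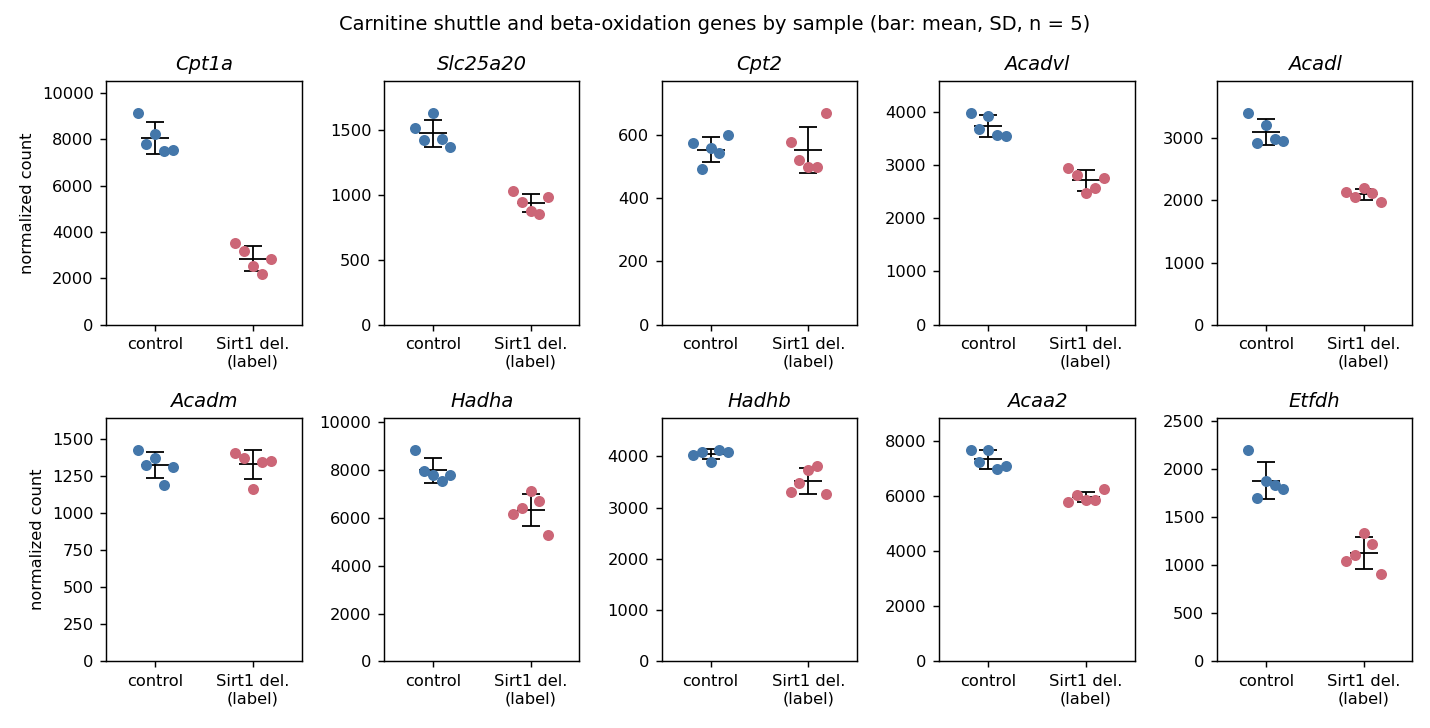
Normalized counts (vertical axes, from 0) of the 10 members in each sample, with controls in blue and labelled Sirt1-deleted samples in red; points are samples in order of replicate number, and bars give the mean and SD of 5 samples. The groups do not overlap for 8 genes, with Cpt1a at 7497 to 9144 in controls and at 2167 to 3527 in the labelled Sirt1-deleted samples, while Cpt2 and Acadm overlap.

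The carnitine shuttle was uneven. Cpt1a (GRCm38 chromosome 19, 3322334 to 3385733, plus strand) measured 9144, 7777, 8249, 7497 and 7553 normalized counts in control replicates 2 to 6, and 3527, 3201, 2518, 2167 and 2850 in labelled Sirt1-deleted replicates 7, 8, 10, 11 and 12. The highest labelled Sirt1-deleted sample was far below the lowest control, and replicates 10 and 11 were the lowest. The means were 8044 ± 683 and 2852 ± 538 (SD, n = 5 per group), so that 35.5% of the control level was left. The log2 difference was -1.51 (SE 0.11, 95% interval -1.76 to -1.27), and 0.314% of all tested genes had a difference as low or lower. Without labelled Sirt1-deleted replicate 10 it was -1.47 (SE 0.12).

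Slc25a20, the carnitine-acylcarnitine carrier (chromosome 9, 108662088 to 108684641, plus strand), measured 1509, 1422, 1629, 1428 and 1363 in controls and 1025, 944, 872, 854 and 984 in the labelled Sirt1-deleted samples, in the same order of replicates. All 5 labelled Sirt1-deleted samples were below all controls, and replicates 10 and 11 were again the lowest. The mean was 63.6% of the control mean (1470 ± 103 against 936 ± 72.7, SD, n = 5 each), a log2 difference of -0.65 (SE 0.07).

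Cpt2, the inner-membrane transferase (chromosome 4, 107903981 to 107923610, minus strand), measured 491 to 599 in controls and 497 to 668 in the labelled Sirt1-deleted samples. Its log2 difference was -0.0082 (SE 0.09, 95% interval -0.21 to 0.20). As a description, this interval does not reach the estimates for Slc25a20 or Cpt1a, and it measures only the spread between these samples.

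Of the 3 member dehydrogenases of the first oxidation step, 2 were lower and Acadm was not. Acadvl, the very-long-chain enzyme (chromosome 11, 70010183 to 70015411, minus strand), measured 3981, 3681, 3920, 3567 and 3539 in controls and 2953, 2815, 2470, 2572 and 2754 in the labelled Sirt1-deleted samples. The groups were apart and the lowest samples were again replicates 10 and 11. The log2 difference was -0.46 (SE 0.06), with 72.6% of the control mean left. Acadl, the long-chain enzyme (chromosome 1, 66830839 to 66863277, minus strand), measured 2929 to 3409 in controls and 1976 to 2193 in the labelled Sirt1-deleted samples, where the replicates lay close together (2096 ± 83.1, SD, n = 5). Its log2 difference was -0.56 (SE 0.05). Acadm, the medium-chain enzyme (chromosome 3, 153922357 to 153944632, minus strand), measured 1186 to 1427 in controls and 1162 to 1403 in the labelled Sirt1-deleted samples, and the groups overlapped. Its log2 difference was 0.0037 (SE 0.07, 95% interval -0.14 to 0.15). As a description, this interval does not reach the estimates for Acadvl and Acadl. The annotation places other genes over part of the Acadvl and Acadl loci, on the opposite strand for Acadvl and on both strands for Acadl. The submitters' notes name kallisto but not the annotation it used, and the effect of these overlaps on the values was not tested.

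The subunits of the trifunctional protein, which carries out the next steps on long chains, were lower by less. Hadha, the hydratase and dehydrogenase subunit (chromosome 5, 30118304 to 30155162, minus strand), measured 8860, 7971, 7788, 7531 and 7777 in controls and 6163, 6402, 7108, 6723 and 5306 in the labelled Sirt1-deleted samples. Here replicates 10 and 11 were the highest of their group, and replicate 12 the lowest. The log2 difference was -0.34 (SE 0.07). Hadhb, the thiolase subunit (chromosome 5, 30155248 to 30184593, plus strand), measured 3882 to 4131 in controls and 3303, 3480, 3726, 3815 and 3257 in the labelled Sirt1-deleted samples, with the same replicates highest and lowest. Its log2 difference was -0.20 (SE 0.05), the smallest among the 8 lower members. The genes point away from each other, with 85 bases between their annotated starts (the stretch printed above). The log2 ratio of Hadha to Hadhb was 0.98 ± 0.10 in controls and 0.85 ± 0.09 in labelled Sirt1-deleted spleens (SD, n = 5 per group), with overlapping ranges of 0.87 to 1.14 and 0.70 to 0.93.

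Acaa2, the mitochondrial thiolase that acts on shorter chains (chromosome 18, 74779197 to 74806208, plus strand), measured 6983 to 7698 in controls and 5796 to 6247 in the labelled Sirt1-deleted samples. The log2 difference was -0.30 (SE 0.04), and it was -0.24 after upper-quartile rescaling. Etfdh, which passes the electrons on to ubiquinone (chromosome 3, 79603788 to 79629500, minus strand), measured 2201, 1694, 1873, 1830 and 1786 in controls and 1042, 1108, 1338, 1224 and 911 in the labelled Sirt1-deleted samples. It had the largest difference after Cpt1a, -0.75 (SE 0.10), with 59.9% of the control mean left. Within its group, replicate 10 was the highest and replicate 12 the lowest, as for Hadha. The annotation places other genes over part of the Hadha and Etfdh loci.

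Cpt1a was lower relative to the rest of the set in every labelled Sirt1-deleted sample. The mean log2 value of the other 9 members was 11.35 ± 0.066 in controls and 10.98 ± 0.017 in labelled Sirt1-deleted spleens (SD, n = 5 per group). The log2 ratio of Cpt1a to that mean was 1.71, 1.63, 1.63, 1.58 and 1.57 in control replicates 2 to 6, and 0.78, 0.66, 0.32, 0.10 and 0.52 in labelled Sirt1-deleted replicates 7, 8, 10, 11 and 12. The group means differed by -1.15. Set against the median of the other 9 members, the difference was -0.95.

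Levels of different genes are compared per kilobase of transcript (length of the APPRIS principal transcripts in GENCODE M21). In controls, Acaa2 was the highest at 4841 ± 219 normalized counts per kb (SD, n = 5, as for all levels here). Hadha (1988 ± 128), Hadhb (1980 ± 47.9), Cpt1a (1863 ± 158), Acadvl (1724 ± 93.5) and Acadl (1618 ± 108) followed, and each neighbouring pair in this order differed by no more than the larger of its SDs. Slc25a20 (825 ± 57.7), Etfdh (790 ± 81.2) and Acadm (646 ± 43.5) were lower, and Cpt2 was the lowest at 233 ± 17.1. In the labelled Sirt1-deleted samples Cpt1a moved from the fourth to the sixth place, at 661 ± 125, next to Acadm at 648 ± 46.3, while Acaa2 stayed first at 3933 ± 120 and Cpt2 last at 233 ± 30.8.

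Within the labelled Sirt1-deleted group the members followed different orders of samples. Cpt1a, Slc25a20 and Acadvl were highest in replicate 7 and lowest in replicates 10 and 11, with Cpt1a ranging from 0.33 above to -0.38 below its group mean on the log2 scale. Hadha, Hadhb and Etfdh were instead highest in replicates 10 and 11 and lowest in replicate 12, where Etfdh was at -0.29 and Hadha at -0.25. Cpt2, nearly the same in both groups, was also lowest in replicates 10 and 11 (-0.14 in each), but highest in replicate 12 (0.29). Acadl was highest in replicate 10 (0.07) and lowest in replicate 12 (-0.08). Acaa2 varied least, with deviations from -0.04 to 0.07. The neutrophil marker sums of replicates 10 and 11 were 28975 and 39751.5, the lowest of the group. Some T lineage markers differed there too. Ptcra measured 1171 and 1157 in replicates 10 and 11, against 277.5 to 351.3 in replicates 7, 8 and 12. Rag1 measured 4997 and 4967 against 2323 to 2902. Thy1 went the other way, at 60175 and 64270 against 82730 to 100216, and not all 16 listed genes split these samples. Erythroid marker sums were 86018 and 149299 in replicates 10 and 11, and 122962, 30797 and 48117 in replicates 7, 8 and 12. Replicates 10 and 11 also had the lowest Cpt1a and the highest Hadha, Hadhb and Etfdh of the group. The controls, with neutrophil sums of 9166 to 12659, were higher for all 4 genes. The part of neutrophil or erythroid RNA or of these T lineage differences in this was not tested. Without both samples the log2 difference of Cpt1a was -1.33, that of Slc25a20 -0.58, that of Acadvl -0.395 and that of Etfdh -0.88. Without replicate 10 alone the differences were -0.63 for Slc25a20, 0.027 for Cpt2, -0.43 for Acadvl, -0.58 for Acadl and 0.051 for Acadm. For the later steps they were -0.38 for Hadha, -0.23 for Hadhb, -0.29 for Acaa2 and -0.81 for Etfdh.

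**Figure D2:**
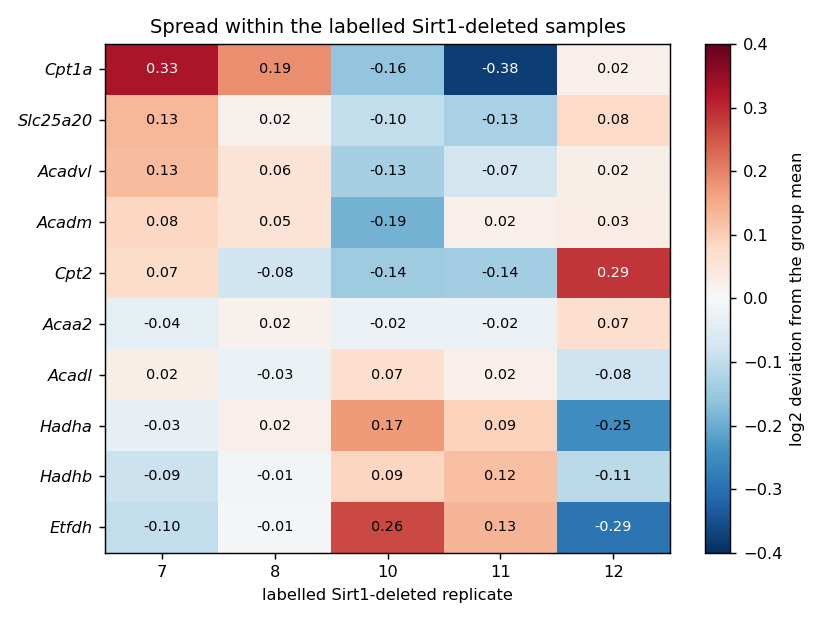
Deviation of each member (rows) from its group mean on the log2(normalized count + 1) scale in the 5 labelled Sirt1-deleted samples (columns), in red above and in blue below the mean. Cpt1a, Slc25a20, Acadvl and Cpt2 share low values in replicates 10 and 11. Hadha, Hadhb, Etfdh and, by less, Acadl share low values in replicate 12.

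Among 10751 other genes with a mean of at least 100, the profile most like that of Cpt1a over the 10 samples was that of Acadvl (Pearson r = 0.98 on log2 values), followed by Slc25a20 (r = 0.98). Klhl24, Acads (the short-chain acyl-CoA dehydrogenase) and Zfp747 came next, each at r = 0.98. These values are descriptions and carry no p, since all 5 genes are also lower in the labelled Sirt1-deleted group and r over both groups mostly follows that difference. After each group's mean was subtracted, Acadvl had r = 0.87 with Cpt1a, Acads r = 0.84 and Slc25a20 r = 0.78 over the same 10 samples, while Hadhb had r = -0.77. By this measure Acadvl ranked 66 and Slc25a20 275 among the 10751 genes. Genes among the highest r within groups were St6gal1 (r = 0.97), Ifngr2 (r = 0.95), Slc17a5 (r = 0.94) and Jakmip1 (r = 0.94). These were picked as the highest of 10751 genes, and their r carries no p. Between the groups, Ifngr2 was higher, opposite to Cpt1a (log2 difference 0.39, limma adjusted p = 0.0211). Slc17a5 was lower (-0.32, limma adjusted p = 0.0480), a call lost in 7 of the 10 fits that left out 1 sample. St6gal1 and Jakmip1 did not pass the test between the groups (limma adjusted p of 0.661 and 0.599).

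**Figure D3:**
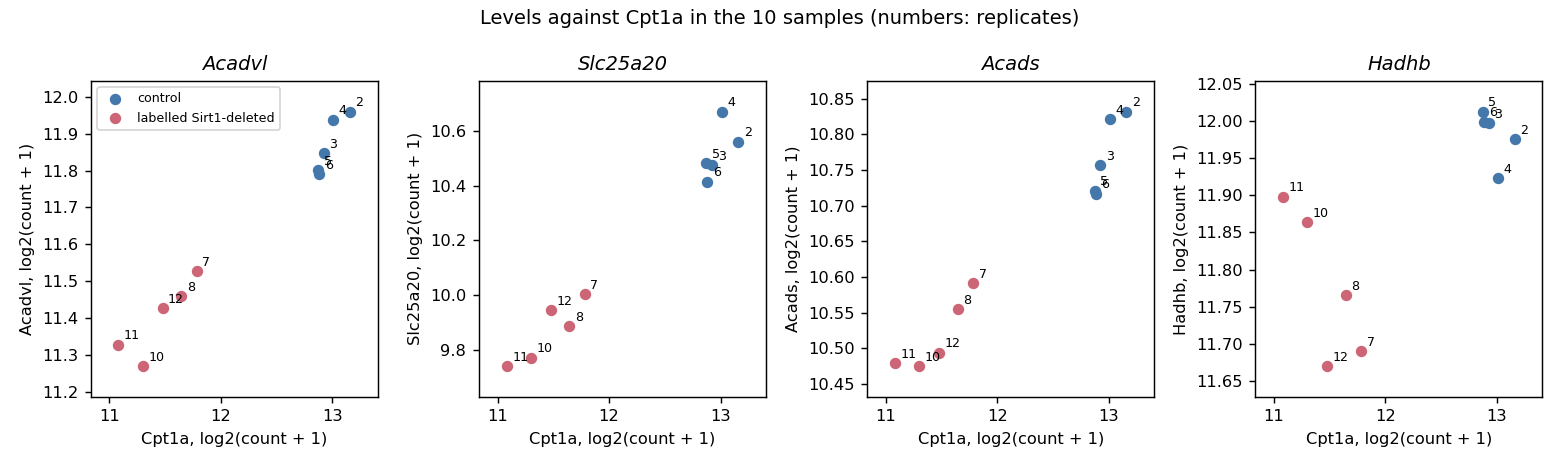
log2(normalized count + 1) of Acadvl, Slc25a20, Acads and Hadhb (vertical axes) against that of Cpt1a (horizontal axes) in the 10 samples, with replicate numbers beside the points. The first 3 genes rise with Cpt1a both across and within the groups, whereas Hadhb within the labelled Sirt1-deleted group is highest where Cpt1a is lowest.

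The other carnitine palmitoyltransferase 1 genes did not follow Cpt1a. Cpt1b, the muscle-type gene, measured 145 to 279 normalized counts in controls and 114 to 229 in the labelled Sirt1-deleted samples (log2 difference -0.05, 95% interval -0.53 to 0.44, limma adjusted p = 0.897), and its sign changed under upper-quartile rescaling (0.014). Cpt1c, a form known from brain, measured 50.5, 43.1, 71.0, 41.8 and 47.6 in controls and 175, 143, 103, 168 and 175 in the labelled Sirt1-deleted samples. It rose with no overlap (log2 difference 1.57, SE 0.19, limma adjusted p = 3.16e-04). Its level stayed small beside that of Cpt1a: per kilobase, Cpt1c was at 55.4 ± 11.1 and Cpt1a at 661 ± 125 in the labelled Sirt1-deleted samples. Of the per-kilobase sum of the 3 genes, Cpt1a made up 95.6% ± 1.20 in controls and 84.4% ± 1.03 in labelled Sirt1-deleted spleens (SD, n = 5 per group). The annotation places another gene over part of the Cpt1c locus.

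Beyond the 10 members, 23 further genes of mitochondrial fatty acid oxidation were tested, from a list chosen with earlier results of these data known. By limma, 8 fell, 4 rose and 11 did not pass, and the median log2 difference was -0.10. The called share was 52.2%, against 36.1% over all tested genes, and nothing is read from it. Acads fell from 1746 ± 66.3 to 1467 ± 53.4 (SD, n = 5 per group; log2 difference -0.25, limma adjusted p = 0.00284) and Crat, which moves acetyl groups to carnitine, from 538 ± 93.0 to 363 ± 87.6 (-0.58, limma adjusted p = 0.0195). The call of Crat was lost without control replicate 2 (limma adjusted p = 0.0519). Hadh, the dehydrogenase for shorter chains, fell by 0.21 on the log2 scale (limma adjusted p = 0.0112) and Decr1, which handles unsaturated chains, by 0.22 (limma adjusted p = 0.0233). The call of Hadh was lost after quantile or upper-quartile normalization, and that of Decr1 also without control replicate 2 or labelled Sirt1-deleted replicate 7, 8 or 12. Eci2, an enoyl-CoA isomerase named after its value was seen, fell by 0.49 (limma adjusted p = 6.88e-04). Eci1, also an enoyl-CoA isomerase, went the other way at low values, from 65.2 ± 13.4 to 98.1 ± 27.7 (0.565, limma adjusted p = 0.0424). The call of Eci1 was lost in 7 of the 10 fits that left out 1 sample.

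The flavoprotein that feeds Etfdh moved little. Etfa fell from 4504 ± 93.3 to 3974 ± 426 (log2 difference -0.19, limma adjusted p = 0.0453), a call lost when any sample other than labelled Sirt1-deleted replicates 10 and 11 was omitted. Etfb, its partner, had a log2 difference of -0.0081 (95% interval -0.11 to 0.10, limma adjusted p = 0.918) and Echs1, the short-chain hydratase, one of -0.10 (limma adjusted p = 0.250). Slc25a29, a carrier related to Slc25a20, rose from 119 ± 10.5 to 173 ± 26.6 (0.53, limma adjusted p = 0.00775). The number of calls in this list was 7 without control replicate 2 and 7 after quantile normalization, against 12 in all. Of the 12 calls, 5 were never lost in any fit run.

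**Figure D4:**
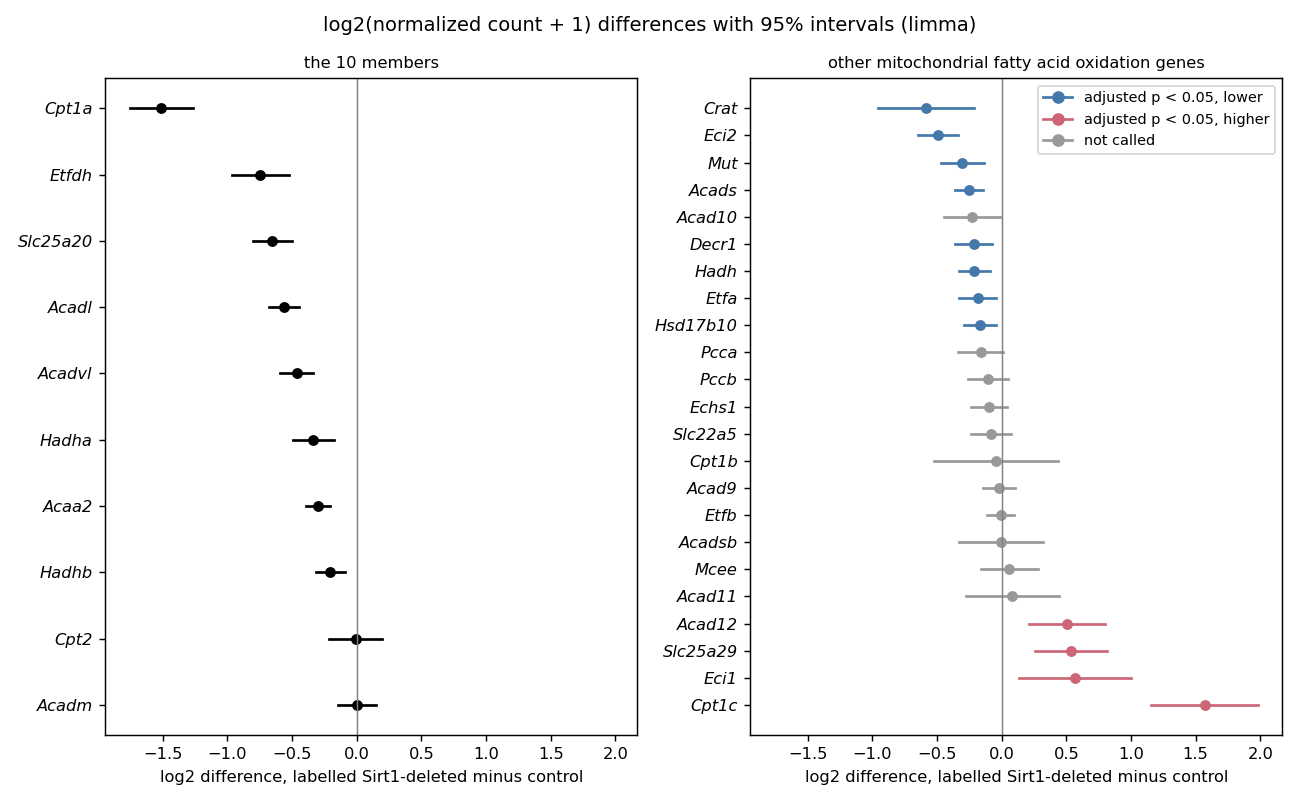
log2 differences (horizontal axis, labelled Sirt1-deleted minus control) with 95% intervals from limma for the 10 members (left) and for 23 other genes of mitochondrial fatty acid oxidation (right, coloured by call). Cpt1a lies farthest to the left at -1.51, Cpt2 and Acadm lie at 0 within their intervals, and Cpt1c lies farthest to the right at 1.57.

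Peroxisomes shorten very long chains by a separate enzyme set. Of 17 listed peroxisomal genes 16 were tested, and 5 fell, 0 rose and 11 did not pass (median log2 difference -0.21). The called share was 31.25%, all lower. Over all tested genes, 36.1% were called in either direction and 19.4% were called lower. Nothing is read from these shares. Among the called genes with the largest change, Hsd17b4 fell by 0.34 (limma adjusted p = 0.00457) and Ehhadh by 0.41 (limma adjusted p = 0.0384). The call of Ehhadh was lost in 6 of the 10 fits that left out 1 sample, and the list held 2 calls without control replicate 2 or 4 or labelled Sirt1-deleted replicate 12, and 3 without labelled Sirt1-deleted replicate 7 or 8.

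Of 16 tested acyl-CoA synthetase, thioesterase and acyl-CoA binding genes, 2 fell and 2 rose (25.0% called, against 36.1% over all tested genes). The sum over the list was 22499 to 24087 in controls against 24281 to 25986, with no overlap. Acsl5, an acyl-CoA synthetase, rose from 6415 ± 507 to 7736 ± 587 (SD, n = 5 per group; log2 difference 0.27, limma adjusted p = 0.00764). The thioesterase genes Acot1 (-0.82, limma adjusted p = 0.0390) and Acot2 (-0.39, limma adjusted p = 0.0246) fell, but they are near-identical copies whose reads can be shared, and both calls were lost after upper-quartile rescaling. Without control replicate 2, 4 or 5 this list held 2 calls, both higher.

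Of 17 tested genes of lipid uptake, storage and release, 4 fell and 6 rose (58.8% called, against 36.1% over all tested genes). Cd36, a fatty acid receptor, fell from 244 ± 72.5 to 121 ± 74.8 (log2 difference -1.19, limma adjusted p = 0.0262), with overlapping groups and a call lost in 6 of the 10 fits that left out 1 sample. Dgat1, which makes triglyceride, rose from 522 ± 55.7 to 899 ± 191 (0.76, limma adjusted p = 0.00195).

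Malonyl-CoA, made by acetyl-CoA carboxylases, inhibits carnitine palmitoyltransferase 1. Of 13 tested genes of the malonyl-CoA and AMPK list, 3 fell and 1 rose (30.8% called, against 36.1% over all tested genes). Acaca fell from 3180 ± 508 to 2226 ± 460 (log2 difference -0.52, limma adjusted p = 0.0112; the groups overlapped, and the exact rank-sum test gave an adjusted p of 0.124) and Acly, which supplies acetyl-CoA, from 9107 ± 748 to 6594 ± 1134 (-0.48, limma adjusted p = 0.00545). Stk11, the kinase upstream of AMPK, rose from 5710 ± 400.2 to 7380 ± 466 (0.37, limma adjusted p = 9.82e-04). Acacb, the mitochondria-associated carboxylase (-0.20, limma adjusted p = 0.355), and Mlycd, which removes malonyl-CoA (0.12, limma adjusted p = 0.355), did not pass.

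Among the nuclear receptors and coregulators of the pathway, 17 of 20 were tested, of which 3 fell and 1 rose. The called share, 23.5%, was below the 36.1% over all tested genes. Ppard was the most abundant PPAR gene by normalized count. It fell from 880 ± 37.4 to 753 ± 24.5 (SD, n = 5 per group; log2 difference -0.22, limma adjusted p = 0.00933), with no overlap. Ppara was near the low end of the table, at 16.7 ± 3.18 and 14.6 ± 2.46 (limma adjusted p = 0.617), and Ppargc1a was below the filter in both groups. Ppargc1b measured 526 ± 31.4 and 582 ± 53.8 (limma adjusted p = 0.175). Rxrb, a partner of PPARs, fell by 0.16 on the log2 scale (limma adjusted p = 0.0230), a call lost after quantile or upper-quartile normalization and without control replicate 3 or 4. The gene that rose was Pparg, named after its value was seen, from 22.3 ± 7.19 to 42.4 ± 5.92 (0.94, limma adjusted p = 0.00989). Macrophage and monocyte markers rose in the same samples, and their part in this was not tested.

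Of 15 listed PPAR targets outside fatty acid oxidation, 10 were in the table and 8 were tested, and 4 fell while 0 rose. Ucp2, a mitochondrial inner-membrane carrier, fell from 26264 ± 1867 to 19309 ± 2488 (log2 difference -0.45, limma adjusted p = 0.00242), Gk, glycerol kinase, by 0.44 (limma adjusted p = 0.00984) and Angptl4, a secreted lipase inhibitor, by 0.34 (limma adjusted p = 0.00188). Pdk4 was low, at 16.1 ± 4.98 and 22.5 ± 8.43 (limma adjusted p = 0.304). Of 5 genes of ketone body metabolism, 40.0% were called, against 36.1% over all tested genes. Bdh1 fell by 0.35 (limma adjusted p = 0.0264) and Bdh2 rose by 0.87 (limma adjusted p = 0.0253). Both calls were lost without control replicate 2 or 4 or labelled Sirt1-deleted replicate 12, and that of Bdh1 also without control replicate 5 or labelled Sirt1-deleted replicate 7 or 8.

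**Figure D5:**
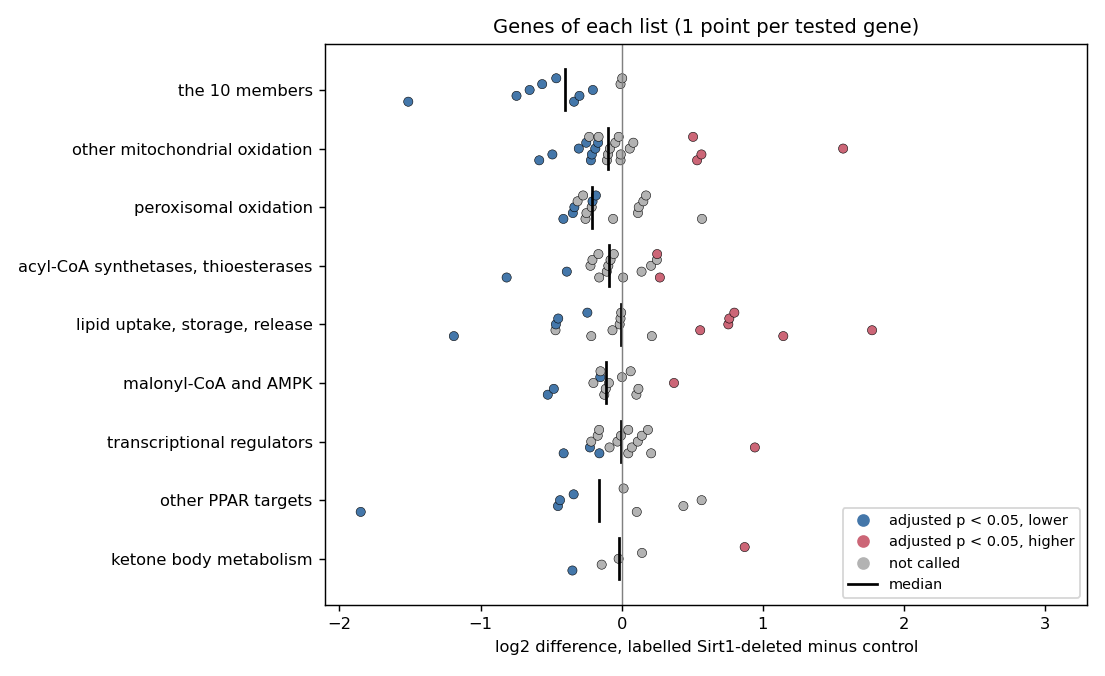
log2 differences of the tested genes in the set of 10 and in 8 related lists, with 1 point per gene, colour for the limma call and a black line at each list's median (over all tested genes the median is -0.00014). Calls of both directions occur among the other mitochondrial oxidation genes (8 lower, 4 higher) and the lipid uptake, storage and release genes (4 lower, 6 higher), and over all tested genes 19.4% were called lower and 16.8% higher; the members were chosen on this contrast and are shown for their values only.

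The genes beside Cpt1a on chromosome 19 were examined for position. Tesmin, 3.12 kb beyond the end of Cpt1a, measured 36.3 ± 10.9 and 27.7 ± 9.18 (limma adjusted p = 0.289), and Gal, 24.2 kb away, was below the filter. Ppp6r3, a phosphatase regulator 69.2 kb away, fell by 0.31 on the log2 scale (limma adjusted p = 0.00628). On the other side, the mitochondrial ribosomal gene Mrpl21, 29.5 kb away, had a log2 difference of 0.018 (limma adjusted p = 0.829), the overlapping Ighmbp2 fell by 0.30 (limma adjusted p = 0.0118) and the pseudogene AC148174.1 was below the filter. The differences of both called neighbours were far smaller than that of Cpt1a.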

How the data were processed

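RNA-seq of 10 leukemic spleens (5 labelled Sirt1-deleted, 5 control) was used. Strand-specific Illumina libraries were made per the labels' protocols. The authors deposited 1 table of gene counts already normalized by DESeq, treated here as a normalized signal. The submitters' processing notes name kallisto 0.44.0, DESeq and mm10, with no annotation or order given. Raw depth is not in the table. The spacing of low values points to about 31500000 to 38200000 reads per sample. Of the values worth 8.5 reads or fewer, 64.6% to 74.0% were within 0.1 of a whole number of reads, too few to recover reads, and no counting intervals are given.

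log2(value + 1) was analysed with limma 3.58.1 in R 4.3.3 (group the only term, intensity trend) for the 15276 genes with a mean of at least 10, with Benjamini-Hochberg adjustment over all of them and a threshold of 0.05. The script was tested on simulated data. The members and gene lists were chosen with earlier results of these data known. Named genes are the 10 members, 19 genes fixed by name, up to 3 called genes per list with the largest difference and a mean of at least 100, the 5 genes most like Cpt1a (over samples and within groups) and 3 neighbours on each side. Some genes that this rule names are not reported here. Gene positions and lengths are from GENCODE M21 (GRCm38). Alternatives were other pseudocounts, filters, scalings, fits and thresholds and the omission of samples.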

Additional observations from a re-analysis of the deposited data

Results flagged for a closer look

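Within groups of 5, a sample stands apart when its gap to the nearest other sample, divided by the range of the group, exceeds 0.71 (Dixon's criterion). Of 126 such groups, 5 held such a sample, where chance at 1 in 20 gives 6.3. Acadm was lowest in labelled Sirt1-deleted replicate 10, at 1162 normalized counts against 1343 to 1403 in the other samples of its group (ratio 0.751). That sample is also the one with Alb at 2771. Cpt1b was lowest in labelled Sirt1-deleted replicate 11, at 113.8 against 196.6 to 229.3 (ratio 0.717), the sample in which Cpt1a was lowest too. Ppp6r3 was highest in control replicate 2, at 7333 against 5971 to 6202 (ratio 0.830). Ifngr2 was highest in the same control, at 683.7 against 590.7 to 608.7 (ratio 0.806). Mrpl21 was highest in control replicate 6, at 1888 against 1675 to 1728 (ratio 0.752).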

How the results depend on the processing

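No paired analysis was possible because no replicate number occurs in both groups. The differences of the 8 lower members stayed negative in each of the 10 fits that left out 1 sample and under the other alternatives, which is no test of members chosen on this contrast. The difference of Acaa2 moved by more than the spread between replicates after upper-quartile rescaling (-0.24), and the ratio of Cpt1a to the other members when their median was used (-0.949). Upper-quartile rescaling shifted the median of all genes to 0.058 and the share of higher calls from 46.4% to 58.2%.

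All-gene calls numbered 3659 with the exact rank-sum test and 2850 at 0.01, against 5518. At 0.01 the lists held 5 calls (other mitochondrial oxidation), 1 (synthetases and thioesterases), 2 (peroxisomal), 6 (lipid uptake, storage and release), 2 (malonyl-CoA and AMPK) and 0 (ketone bodies). With the rank-sum test they held 2 (synthetases, both higher), 2 (peroxisomal), 2 (malonyl-CoA) and 0 (ketone bodies). Quantile normalization gave 7 for other mitochondrial oxidation, limma without trend 3 for peroxisomal and 0 for ketone body genes, and upper-quartile rescaling 3 for peroxisomal genes. Regulators had 7 calls with array weights and 7 without labelled Sirt1-deleted replicates 10 and 11. Without 1 sample the lists held 7 to 11 (other mitochondrial oxidation), 2 to 5 (synthetases), 2 to 5 (peroxisomal) and 0 to 3 (ketone bodies). The causes were not tested.

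Leaving out 1 sample moved the differences of the uncalled members Cpt2 (-0.0797 to 0.0271) and Acadm (-0.0351 to 0.0506) to both sides of 0. Among named genes that are no members, signs changed for 5, none of them called. With array weights these were Cpt1b (0.0395), Etfb (0.0167), Jakmip1 (0.0078) and St6gal1 (0.0388), after upper-quartile rescaling Cpt1b (0.0139) and Etfb (0.0512), and after quantile normalization Etfb (0.0489). Without replicates 10 and 11 they were Cpt1b (0.144), Etfb (0.0154), Jakmip1 (0.102), Mrpl21 (-0.0038) and St6gal1 (0.111). Without 1 sample, the ranges were -0.142 to 0.129 (Cpt1b), -0.0316 to 0.0211 (Etfb), -0.137 to 0.00554 (Jakmip1), -0.0043 to 0.0485 (Mrpl21) and -0.14 to 0.00707 (St6gal1). Of 957 values for 48 named genes that are no members, 833 kept their sign and side of the threshold, 103 lost the call and 1 gained it.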
